A study of Mus musculus with 8 samples.

Results

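The genes described here are 48 markers of cell division: genes whose products copy DNA in S phase, supply its building blocks, or carry chromosomes through mitosis. They were taken by symbol from a fixed list, and all 48 were found among the 34866 genes of the deposited table. RNA came from epididymal white adipose tissue, a visceral fat depot of the abdomen, in male mice of 2 genotypes. The 4 control samples had the genotype Aromatase flox/flox, in which the aromatase gene Cyp19a1 is flanked by loxP sites. The 4 knockout samples had the genotype aP2-Cre;Aromatase flox/flox, so both groups carry the floxed alleles and only the knockout group carries Cre. The aP2 promoter is that of Fabp4, which is active in adipocytes and is known to be active in other cells of fat as well, macrophages among them. A group with the Cre transgene alone was not analysed here, and the labels give no age. Aromatase converts androgens into oestrogens, and the stated purpose of the experiment was to find its targets in fat that bear on phosphorus metabolism.

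A cell that commits to division activates E2F transcription factors, which switch on the genes for origin licensing, replication and nucleotide synthesis. Later, in G2 and mitosis, cyclin B with its kinase Cdk1 starts chromosome condensation and spindle assembly, and the anaphase-promoting complex then destroys cyclins and separation inhibitors. Mature adipocytes are regarded as non-dividing, and fat also holds cells that can divide, such as progenitors, endothelial cells, macrophages and lymphocytes. RNA of a whole depot cannot tell fewer dividing cells from less RNA per dividing cell.

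Promoters of mitotic genes are known for 2 short elements, the CCAAT box and the cell cycle genes homology region (CHR), and S phase genes for E2F sites. RefSeq promoter windows on GRCm38.p6, from 250 bases before to 50 after each annotated start, were found for 39 of the 48 genes and searched on both strands for CCAAT, for TTTGAA or TTCGAA as CHR, and for TTTGGCGC or TTTCCCGC as E2F sites; none of these words lies within another. A CCAAT was present in 30 of the 39 genes (76.9%), against 41.1% of all 27025 genes in the table, where any window of a gene could match. CHR letters were present in 21 (53.8%, against 21.7%), and E2F letters in 5 (12.8%, against 1.8%). By role, 18 of 24 genes of the G2, mitosis and chromosome groups held CCAAT and CHR in 1 window (75%, against 8.61% of all genes), and 5 of 14 genes of the replication, nucleotide and G1 to S groups held E2F letters (35.7%, against 1.8%). The 200 bases before the start are shown for 5 genes described below, 4 with higher and 1 (Cks1b) with lower mean levels in the knockout libraries, with matches in capitals (ATTGG and TTCAAA are CCAAT and TTTGAA on the other strand):
Mki67, chr7:135716380-135716579, minus strand: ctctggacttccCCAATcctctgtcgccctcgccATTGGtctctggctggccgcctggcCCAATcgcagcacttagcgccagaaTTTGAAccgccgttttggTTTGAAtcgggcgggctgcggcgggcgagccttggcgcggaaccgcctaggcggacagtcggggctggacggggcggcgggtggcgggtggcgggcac
Cenpf, chr1:189688087-189688286, minus strand: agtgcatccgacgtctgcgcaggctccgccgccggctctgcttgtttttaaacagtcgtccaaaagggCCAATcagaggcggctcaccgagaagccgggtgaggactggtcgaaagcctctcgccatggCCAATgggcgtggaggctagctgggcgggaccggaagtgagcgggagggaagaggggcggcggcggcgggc
Cenpa, chr5:30666686-30666885, plus strand: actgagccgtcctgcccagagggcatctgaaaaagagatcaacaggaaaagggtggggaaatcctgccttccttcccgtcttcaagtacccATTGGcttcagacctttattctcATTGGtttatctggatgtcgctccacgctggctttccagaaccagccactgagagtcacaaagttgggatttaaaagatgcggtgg
Ccnb1, chr13:100786487-100786686, minus strand: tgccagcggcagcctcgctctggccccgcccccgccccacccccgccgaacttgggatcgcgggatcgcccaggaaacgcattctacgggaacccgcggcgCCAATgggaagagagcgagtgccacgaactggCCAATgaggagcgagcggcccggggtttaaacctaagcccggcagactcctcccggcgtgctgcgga
Cks1b, chr3:89418292-89418491, minus strand: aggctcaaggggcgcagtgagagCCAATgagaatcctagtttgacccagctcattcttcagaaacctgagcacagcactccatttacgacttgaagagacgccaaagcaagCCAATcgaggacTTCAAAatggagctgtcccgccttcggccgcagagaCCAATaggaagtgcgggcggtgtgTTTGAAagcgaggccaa

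In these windows Mki67 holds 3 CCAAT and 2 CHR matches and Cks1b 3 and 2, while Cenpf, Cenpa and Ccnb1 hold 2 CCAAT each. The same stretch of Cenpe, also described below and not shown, holds 1 CCAAT and 0 CHR matches. Cenpf and Cenpa have a TTTGAA just after the start, at bases 3 and 17. The windows of Tk1 and E2f1, also described below, held none of the letters searched. For Tk1 the 200 bases before the annotated start (chromosome 11, 117826015 to 117826214) lie partly inside the gene span, which ends at 117826092. Those of Cenpa, Cenpe, Ccnb1 and Cks1b also lie partly inside their gene spans. For E2f1 the 200 bases before the annotated start (chromosome 2, 154569427 to 154569626) lie inside the gene span, 154559407 to 154569892. Bases before that span were not searched, so the E2f1 window does not describe them. These are matches of letters, with no measure of binding.

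Depth set the limits of what could be seen. The 8 libraries held 1538427 to 3053565 estimated counts, and the 48 genes together 1280 to 2789 of them per library. Cyp19a1, the targeted gene, was at 0.694, 0.415, 2.23 and 0.634 CPM in control replicates 1 to 4 and at 0, 1.6, 0.799 and 0.518 CPM in knockout replicates 1 to 4, too few counts to check the deletion (exact permutation test, two-sided, p = 0.629, where 0.0286 is the least this design allows). The labelled tissue was borne out by its markers, with the 9 adipocyte markers summing to 28906 to 48281 CPM. The sum of 12 macrophage markers was 924 to 1061 CPM in the control and 1337 to 1710 CPM in the knockout libraries, without overlap. Of the 12, 11 had a positive fold change, and 2, Cd68 and Lyz2, an edgeR adjusted p under 0.05 (0.168% of all tested genes). Lyz2 carried most of the difference, with means of 375 and 676 CPM, and the separation of the sums rested on it. Cd68, Adgre1, Csf1r, Itgam and Trem2 also did not overlap singly (2.47% of all tested genes), while Mrc1, Cd14, Mertk, C1qa, C1qb and C1qc did. The lymphocyte sum was 409 to 999 and 312 to 820 CPM in the control and knockout libraries, and the endothelial sum 412 to 763 and 576 to 710 CPM. Of the germ cell and epididymis list, Lcn5, Lcn8 and Crisp1 were at 0 throughout, while the sperm gene Prm2 was at 44 CPM in control replicate 1 and at 0 to 9.99 CPM elsewhere. Whether the labels' samples are 1 animal each is not stated, so p-values measure the spread between these samples.

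No gene of the list passed the test. Of the 48 genes, 37 were abundant enough to be tested and 0 had an edgeR adjusted p under 0.05, where 0.168% of all 12480 tested genes did; the smallest adjusted p was 0.551, for E2f1. DESeq2 called 0 as well (0.355% of all its genes). At an edgeR unadjusted p under 0.05 the list held 8 genes, or 21.6% of those tested, against 6.39% of all tested genes. Of the 8, 7 were higher in the knockout libraries (3.52% of all tested genes) and 1 was lower (2.87%). The 7 were E2f1, Tk1, Cenpa, Mki67, Ccnb1, Cenpf and Cenpe, and the 1 was Cks1b. At the same unadjusted threshold DESeq2 held 4, namely Cenpa, E2f1, Mki67 and Tk1, against 3.39% of all its genes.

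The 37 tested genes did not share a direction. Their median log2 fold change (knockout against control) was 0.05, with 21 of 37 genes higher, beside a median of 0.00 and 49.7% higher over all tested genes. Individual log2 fold changes of tested genes ran from -1.09 for Cks2 to 1.11 for Cenpe. The 11 untested genes leaned upward. In the edgeR fit without the filter their log2 fold changes ran from 0.01 for Kif20a to 1.47 for Plk1, on few counts. The median over all 48 genes in that fit was 0.12, and the matching median over all genes is not given here. Groups did not overlap for Tk1, Ccnb1 and Top2a, all higher in the knockout libraries (2.47% of all tested genes), and no listed gene lay wholly lower (1.7%). Ccnb1 was tested only because of the group in which it was higher: the filter asked for 4.15 CPM on plain totals in 4 libraries, which 0 control and 4 knockout libraries reached, so its lack of overlap and its place among the 8 are given as description. It was the 1 such gene of the 37 (18 of all 12480 tested genes), and without the filter its edgeR unadjusted p was 0.0713. Of the rest of the 8, Cenpe reached that level in 1 control and 3 knockout libraries and Mki67 in 3 and 4. Both also needed knockout libraries to be tested, so their places among the 8 are likewise description. Outside the 8, Pold1 reached it in 1 control and 4 knockout libraries, Mcm2 and Mcm5, both higher, in 2 and 4, and Cks2 and Nusap1, both lower, in 3 and 1. Rrm2 did so in 2 and 3, Cdk1 in 2 and 2, Birc5 in 3 and 2, Prc1 in 3 and 3 and Kif23 in 3 and 4. The number of higher genes at the unadjusted threshold changed when single libraries were left out. In place of 7 it was 4 without control replicate 1 or 2 (3.35% and 3.2% of all genes in those fits). It was 3 without control replicate 3, control replicate 4 or knockout replicate 2 (2.92%, 3.83% and 2.92% of all genes). Each of these fits has 1 library fewer, and the part of that in the lower counts was not tested. Tk1 and E2f1 kept an unadjusted p under 0.05 in all 8 fits that left out a library, Cenpa in 5, Mki67 in 4, Cenpe, Cenpf and Cks1b in 3 and Ccnb1 in 2.

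**Figure D1:**
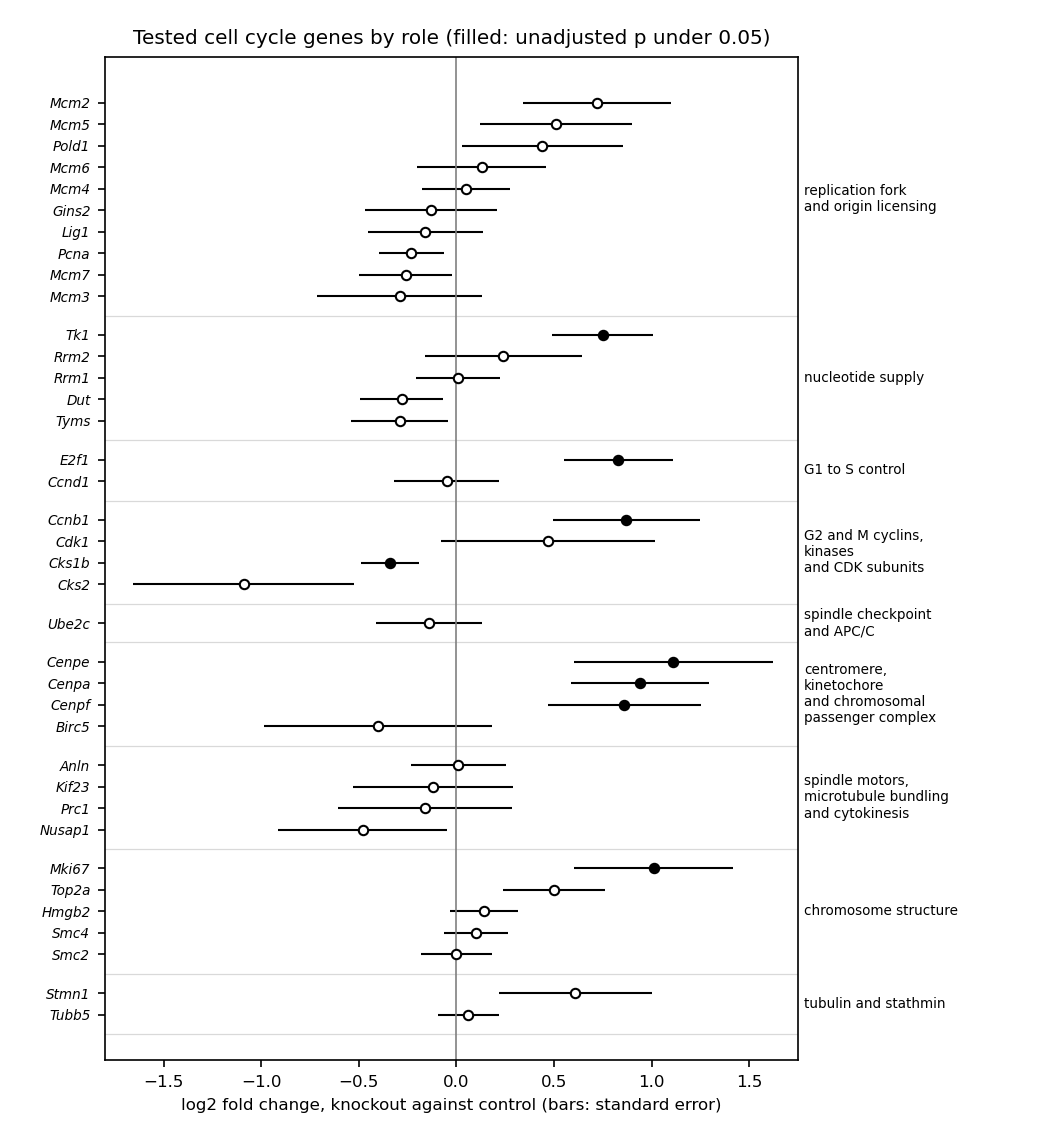
Log2 fold change of the 37 tested genes, knockout against control, by role group, with the standard error as a horizontal bar; filled points have an edgeR unadjusted p under 0.05. The 3 centromere genes Cenpe, Cenpa and Cenpf lie between 0.86 and 1.11, while the replication fork genes spread to both sides of 0, from -0.29 to 0.72.

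Summed over all 48 genes, the counts were 833, 846, 875 and 811 CPM in control replicates 1 to 4 and 835, 903, 904 and 907 CPM in knockout replicates 1 to 4. Knockout replicate 1 lay inside the control range and the other 3 just above it. The means were 841 ± 26.7 and 887 ± 34.8 CPM (SD, n = 4 each), a ratio of 1.05. That sum is carried by few genes: Tubb5, the gene of a beta-tubulin made in many cell types, supplied 26.1% of the counts, and the first 5 genes (Tubb5, Ccnd1, Smc4, Pcna and Cks1b) 53.5%. Without Tubb5, Ccnd1, Stmn1 and Hmgb2, which are also expressed widely outside dividing cells and supplied 41.3% of the counts, the remaining 44 genes summed to 526, 489, 486 and 462 CPM in the control against 492, 579, 523 and 494 CPM in the knockout libraries, a ratio of 1.06 with overlapping groups. With plain library totals in place of TMM-scaled ones the log2 ratio of the full sum went from 0.077 to 0.146, and with every gene weighted equally on the log2(CPM + 0.5) scale the difference was 0.238.

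**Figure D2:**
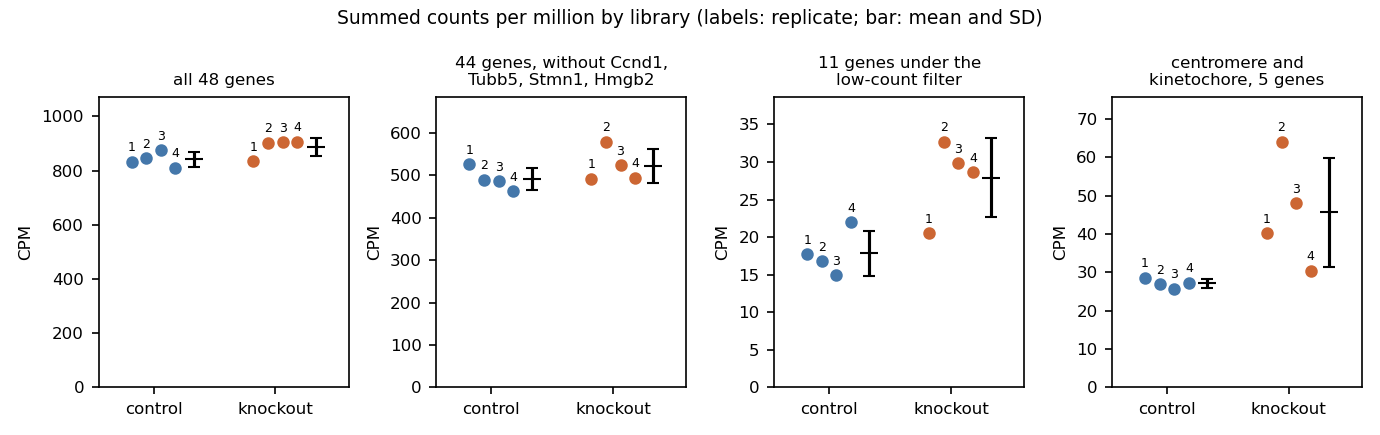
Summed CPM in each library for all 48 genes, for 44 genes without 4 widely expressed ones, for the 11 genes under the low-count filter and for the 5 centromere, kinetochore and passenger complex genes; small numbers give the replicate and bars the mean and SD (n = 4). The full sum differs by a ratio of 1.05, whereas the 5-gene sum is 25.7 to 28.6 CPM in every control and 30.4 to 64.1 CPM in every knockout library.

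At the entry to S phase stand E2f1, a transcription factor that switches on replication genes, and Ccnd1, cyclin D1, which with its kinases inactivates the retinoblastoma protein. E2f1 (chromosome 2, 154559407 to 154569892) was at 7.87, 10.7, 9.97 and 6.17 CPM in control replicates 1 to 4 and at 17.5, 10.4, 18.8 and 16.4 CPM in knockout replicates 1 to 4. Of the knockout libraries 3 lay above every control, and replicate 2 lay inside the control range. The log2 fold change was 0.83 (standard error 0.28, edgeR unadjusted p = 0.00999, adjusted p = 0.551). Ccnd1 (chromosome 7, 144929931 to 144939925) was at 56.2, 89.7, 81.2 and 124 CPM in the control and at 60.6, 86, 120 and 69.3 CPM in the knockout libraries. Its groups covered almost the same range, with a log2 fold change of -0.05 (standard error 0.268, edgeR adjusted p = 0.992).

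Of the 5 genes that supply nucleotides, only Tk1 differed at the unadjusted threshold. Tk1, thymidine kinase of the salvage route (chromosome 11, 117815526 to 117826092), was at 9.73, 8.3, 8.5 and 7.17 CPM in the control and at 13.6, 16.5, 15.4 and 11.8 CPM in the knockout libraries. All 4 knockout libraries lay above all 4 controls. The means were 8.43 ± 1.05 and 14.3 ± 2.08 CPM (SD, n = 4), a log2 fold change of 0.75 (standard error 0.259, edgeR unadjusted p = 0.0111, adjusted p = 0.58). Tyms, which makes thymidylate by the other, de novo route, was at 14.8 ± 1.61 CPM in the control against 11.9 ± 2.83 CPM in the knockout group (SD, n = 4). Its log2 fold change was -0.29 (edgeR adjusted p = 0.922). Rrm1 and Rrm2 encode the subunits of ribonucleotide reductase. Rrm1 (chromosome 7, 102441695 to 102469771) was at 27.5, 27.2, 23.7 and 40.9 CPM in the control and at 25.9, 29, 40.9 and 23.7 CPM in the knockout libraries, so the groups covered the same range (log2 fold change 0.01). The log2 fold changes of Rrm2 and of Dut, which removes dUTP, were 0.24 and -0.28.

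The 10 genes of the replication fork gave no difference at the unadjusted threshold and were evenly divided, 5 higher and 5 lower. Mcm2 to Mcm7 form the ring that unwinds DNA ahead of the fork, and products of 1 complex can be set side by side. Mcm2 and Mcm5 had log2 fold changes of 0.72 and 0.51, Mcm6 and Mcm4 of 0.13 and 0.05, and Mcm7 and Mcm3 of -0.26 and -0.29. Both Mcm2 and Mcm5 reached the filter level in only 2 control libraries and in 4 knockout libraries. Since they needed knockout libraries to be tested, their values are description. Mcm2 was at 5.89, 3.74, 2.67 and 5.07 CPM in the control and at 6.95, 8.41, 7.93 and 5.67 CPM in the knockout libraries, with 3 knockout libraries above every control (edgeR unadjusted p = 0.0795, adjusted p = 0.821). Mcm3 was at 16.3 CPM in control replicate 1, the library with Prm2 at 44 CPM, against 5.4 to 7.57 CPM in the other controls and 4.55 to 11.9 CPM in the knockout libraries. Whether germ cell RNA had a part in that value was not tested. Pcna, the sliding clamp (chromosome 2, 132249162 to 132253314), was at 62.2, 50.3, 54 and 55.6 CPM in the control and at 49, 59, 33.2 and 48.3 CPM in the knockout libraries. The groups overlapped, with knockout replicate 3 the lowest of all 8 (log2 fold change -0.23, edgeR adjusted p = 0.91). Gins2 of the helicase complex, Lig1, which joins Okazaki fragments, and Pold1, the catalytic subunit of polymerase delta, had log2 fold changes of -0.13, -0.16 and 0.44.

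Of the 8 genes of the G2 and M cyclins, kinases and CDK subunits 4 were tested, 2 higher and 2 lower. Ccnb1, cyclin B1 (chromosome 13, 100778650 to 100786570), was at 4.27, 3.74, 3.33 and 3.93 CPM in the control and at 8.17, 5.14, 5.45 and 8.59 CPM in the knockout libraries. All 4 knockout libraries lay above all 4 controls, a log2 fold change of 0.87 (standard error 0.377, edgeR unadjusted p = 0.0369, adjusted p = 0.736). Its transcripts share 27.6% of their 31-base words with other genes, most with Ccnb1-ps, so the division of its reads is uncertain. The same holds for 8 more of the 48 genes that share at least 10% of their words: Cks2, Cdc20, Pcna (23.3%), Hmgb2, Stmn1, Cks1b, Plk1 and Rrm2. How many reads fell on shared words was not measured. Cdk1, the kinase that cyclin B activates, was at 2.43 to 4.57 CPM in the control and at 3.18, 5.99, 8.83 and 1.3 CPM in the knockout libraries (log2 fold change 0.47, edgeR adjusted p = 0.942).

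Cks1b and Cks2 encode small subunits that dock CDK complexes to their substrates, and both were lower on average in the knockout libraries. Cks1b (chromosome 3, 89415472 to 89418383) was at 41.9, 45.6, 40 and 52.6 CPM in the control and at 41.3, 33.6, 32.2 and 34.8 CPM in the knockout libraries. Knockout replicate 1 lay inside the control range and the other 3 below it. The log2 fold change was -0.34 (standard error 0.148, edgeR unadjusted p = 0.0373, adjusted p = 0.739). Cks2 was at 4.69, 4.68, 6.48 and 3.17 CPM in the control and at 2.27, 4.57, 2.4 and 0.325 CPM in the knockout libraries, a log2 fold change of -1.09 (standard error 0.567, edgeR unadjusted p = 0.0756, adjusted p = 0.816). Both share words with other genes, 17.3% for Cks1b and 31.7% for Cks2.

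The centromere, kinetochore and passenger complex genes were the only role group whose summed CPM did not overlap between genotypes. The sum of its 5 genes was 28.6, 26.9, 25.7 and 27.3 CPM in the control against 40.2, 64.1, 48 and 30.4 CPM in the knockout libraries. The means were 27.1 ± 1.19 and 45.7 ± 14.3 CPM (SD, n = 4), a ratio of 1.68, or 1.46 without knockout replicate 2. This group is 1 of 9 and is singled out after the values were seen. Its 4 tested genes were divided, Cenpa, Cenpe and Cenpf higher at the unadjusted threshold and Birc5 (survivin, of the chromosomal passenger complex) with a log2 fold change of -0.40.

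Cenpa encodes the histone H3 variant that marks centromeres (chromosome 5, 30666777 to 30674830). It was at 6.17, 11.4, 10 and 9.05 CPM in the control and at 24.6, 24.2, 8.03 and 13.2 CPM in the knockout libraries. Knockout replicates 1 and 2 were well above every control, and replicate 3 lay inside the control range (log2 fold change 0.94, standard error 0.354, edgeR unadjusted p = 0.0187, adjusted p = 0.685). Cenpe, a kinesin motor of the kinetochore (chromosome 3, 135212537 to 135273611), was at 2.77, 3.32, 4.45 and 3.8 CPM in the control and at 3.18, 16.8, 5.76 and 5.07 CPM in the knockout libraries. Replicate 2 stood apart. The log2 fold change was 1.11 (standard error 0.51, edgeR unadjusted p = 0.0461, adjusted p = 0.773), and 0.41 without that library. Cenpf, a large kinetochore protein (chromosome 1, 189640606 to 189688086), was at 11.5, 9.14, 4.53 and 6.5 CPM in the control and at 9.11, 16, 24.7 and 8.5 CPM in the knockout libraries. Here knockout replicates 2 and 3 were high and the other pair lay inside the control range (log2 fold change 0.86, standard error 0.391, edgeR unadjusted p = 0.0452, adjusted p = 0.771). Without knockout replicate 3 the log2 fold change of Cenpf was 0.48. Knockout replicate 2 lay above every control in all 3 genes.

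**Figure D3:**
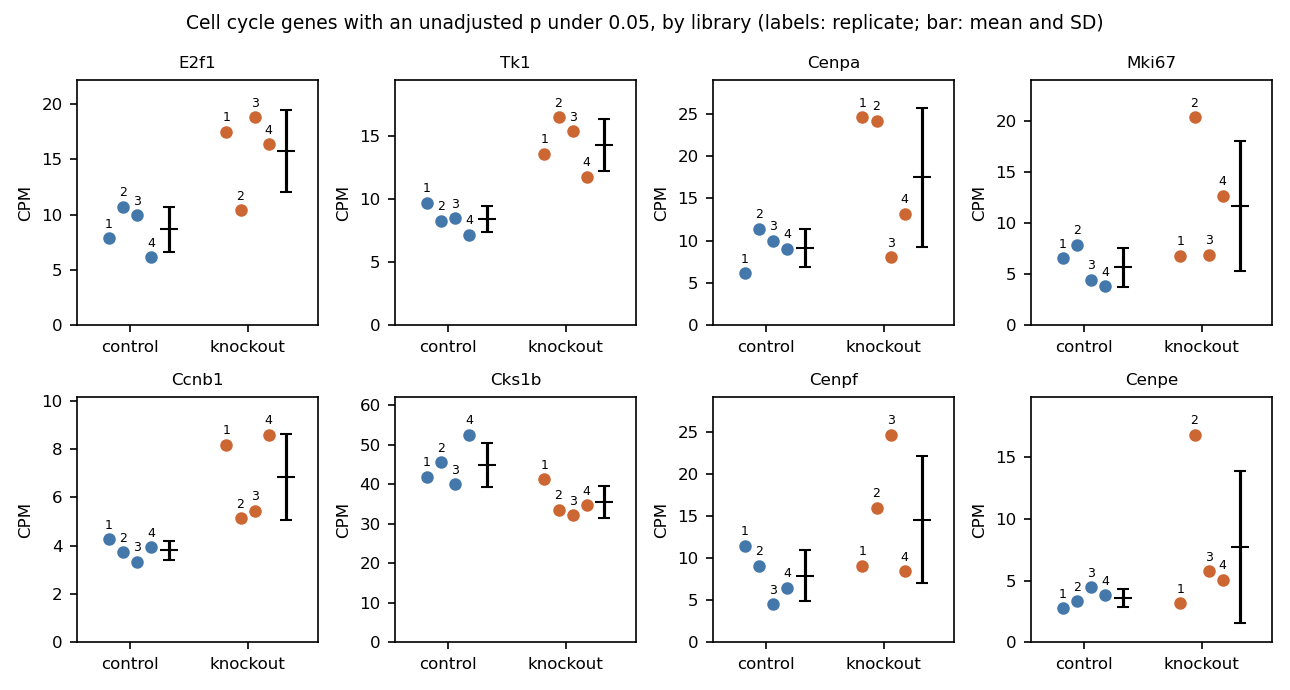
CPM in each library of the 8 genes with an edgeR unadjusted p under 0.05, ordered by p; small numbers give the replicate and bars the mean and SD (n = 4). Tk1 and Ccnb1 show no overlap between genotypes, whereas Cenpe at 16.8 CPM and Mki67 at 20.4 CPM are highest in knockout replicate 2.

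Among the genes of chromosome structure, Mki67, the coat protein of mitotic chromosomes detected as Ki-67 (chromosome 7, 135689784 to 135716361), was at 6.6, 7.9, 4.45 and 3.8 CPM in the control and at 6.81, 20.4, 6.92 and 12.7 CPM in the knockout libraries. Knockout replicates 2 and 4 lay above the controls and replicates 1 and 3 among them. The log2 fold change was 1.01 (standard error 0.407, edgeR unadjusted p = 0.0256, adjusted p = 0.695), and 0.62 without knockout replicate 2. Top2a, the topoisomerase that untangles sister chromatids, was at 10.3, 11.5, 10.2 and 6.36 CPM in the control and at 13.8, 15.6, 12.2 and 13.8 CPM in the knockout libraries. Its groups did not overlap, but the difference missed the unadjusted threshold (log2 fold change 0.50, standard error 0.262, edgeR unadjusted p = 0.0752, adjusted p = 0.816). The condensin subunit Smc4 (chromosome 3, 69004738 to 69034623) was at 64.1, 69, 61 and 43.1 CPM in the control and at 48.3, 65.2, 68.3 and 73.8 CPM in the knockout libraries, with wide overlap (log2 fold change 0.10). Its partner Smc2 had a log2 fold change of 0.00 (standard error 0.182), and the chromatin protein Hmgb2 one of 0.14.

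The 7 genes of the spindle and of cytokinesis summed to 38 ± 3.25 CPM in the control against 38.3 ± 4.09 CPM in the knockout group (SD, n = 4), and none of the 4 tested had an unadjusted p under 0.05. Anln, anillin of the cleavage furrow (chromosome 9, 22332012 to 22389188), was at 15, 11.5, 13.8 and 15.9 CPM in the control and at 16, 14.2, 10 and 16.2 CPM in the knockout libraries, with overlap (log2 fold change 0.01, standard error 0.244). The microtubule-binding genes Prc1 and Nusap1 and the kinesin gene Kif23 had log2 fold changes of -0.16, -0.48 and -0.12. Ube2c, the ubiquitin-conjugating enzyme of the anaphase-promoting complex (chromosome 2, 164769898 to 164778822), was at 21.1, 28.3, 23.8 and 12.5 CPM in the control and at 28.8, 21.7, 12.9 and 16.3 CPM in the knockout libraries, again with wide overlap (log2 fold change -0.14, edgeR adjusted p = 0.971). Tubb5 (chromosome 17, 35833921 to 35838306) was at 211, 212, 266 and 190 CPM in the control and at 235, 181, 200 and 298 CPM in the knockout libraries, with a knockout range that enclosed the control range (log2 fold change 0.06). Stmn1, whose product destabilises microtubules, was at 34.2 CPM in knockout replicate 3 and at 6.34 to 18.3 CPM in the other 7 libraries (log2 fold change 0.61, edgeR adjusted p = 0.909).

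The 11 genes that did not reach the low-count filter were Ccna2, Ccnb2, Plk1, Aurka, Bub1, Bub1b, Cdc20, Aurkb, Tpx2, Kif11 and Kif20a, nearly all of them genes of mitosis. Together they had 51, 41, 33 and 35 estimated counts in the 4 control libraries, by replicate, against 45, 82, 78 and 88 in the 4 knockout ones. As summed CPM this was 17.7, 16.8, 14.9 and 22 in the control and 20.5, 32.7, 29.8 and 28.6 in the knockout libraries, a ratio of 1.56. Knockout replicate 1 lay inside the control range and the other 3 above it. Ccna2, cyclin A2, supplied the most of these counts, with 8.02, 8, 4 and 4 estimated counts in the control and 11.1, 19.1, 16.1 and 9.01 in the knockout libraries, and a fit without the filter gave it an edgeR unadjusted p of 0.0643. The kinase gene Plk1 had 0 to 3 estimated counts in the control and 2 to 7 in the knockout libraries. The spindle checkpoint kinase gene Bub1 had 4 in all 8 libraries together. Single libraries decided whether some of these genes were tested at all: Tpx2 entered the test and had an unadjusted p under 0.05 without knockout replicate 1, and Ccna2 without knockout replicate 4. Without the filter 6 of all 48 genes had an unadjusted p under 0.05, all higher (3.16% of all genes in that fit) and all tested above, and 0 passed the adjusted threshold (0.253%).

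The other genes of the pathway give the setting for these counts. Of 114 further S phase and mitosis genes, such as those of polymerases, replication factor C, the Ndc80 complex and condensin, 60 were tested; 0 had an edgeR adjusted p under 0.05 and 0 an unadjusted p under 0.05 (6.39% of all tested genes). Of the 60 tested, 38 were higher (63.3%, against 49.7% of all tested genes and 56.8% of the tested genes of the 48-gene list). Their median log2 fold change was 0.12 (0.07 for 35 S phase and 0.23 for 25 mitosis genes), against 0.00 over all tested genes. The other 54 genes, 37 of them of mitosis, were too low to be tested. The smallest unadjusted p among them was 0.0631, for the E2F repressor E2f7 (log2 fold change 0.70).

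The remaining lists cover G1 cyclins and CDKs with E2f3 and Myc (6 tested genes), and CDK inhibitors, pocket proteins and arrest genes (25 tested genes). Together, 3 of their 31 tested genes had an edgeR unadjusted p under 0.05 (9.68%, against 6.39% of all tested genes), and 0 passed the adjusted threshold. Cdkn2c, the inhibitor of Cdk4 and Cdk6 known as p18 (chromosome 4, 109660876 to 109667189), was at 355, 324, 365 and 289 CPM in the control and at 251, 161, 255 and 246 CPM in the knockout libraries. All 4 knockout libraries lay below all 4 controls. The means were 333 ± 34.2 and 228 ± 45.3 CPM (SD, n = 4), a log2 fold change of -0.54 (standard error 0.147, edgeR unadjusted p = 0.00221, adjusted p = 0.324, and adjusted p = 0.0418 without the low-count filter). Ccnd2, cyclin D2 (chromosome 6, 127125162 to 127152193), was at 363, 425, 443 and 418 CPM in the control and at 507, 492, 443 and 692 CPM in the knockout libraries, where the nearest values of the groups round to the same 443 CPM (log2 fold change 0.37, standard error 0.14, edgeR unadjusted p = 0.0177, adjusted p = 0.673). Cdk4, the kinase of D-type cyclins (chromosome 10, 127063534 to 127067920), was at 47.3, 46.7, 48.4 and 61.1 CPM in the control and at 43.2, 40.9, 38.9 and 33.8 CPM in the knockout libraries, all lower (log2 fold change -0.37, standard error 0.144, edgeR unadjusted p = 0.0209, adjusted p = 0.689). Of the 26 CDK inhibitors, pocket proteins and arrest genes, 25 were tested, 14 higher and 11 lower, with a median of 0.05. Cdkn2c was the 1 gene of this list with an unadjusted p under 0.05, or 4% of those tested, against 6.39% of all tested genes.

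**Figure D4:**
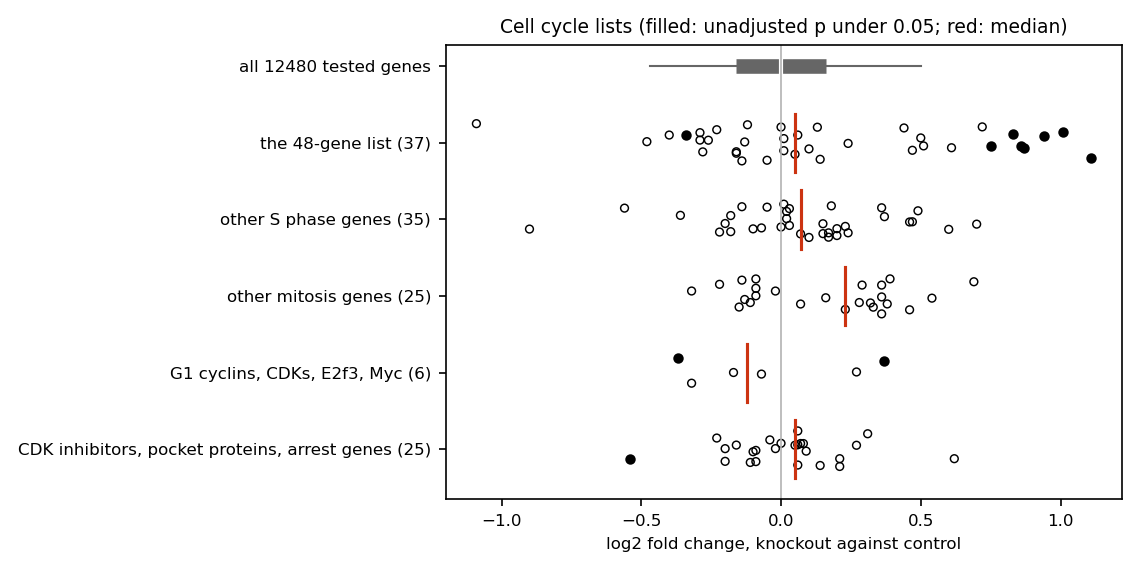
Log2 fold change, knockout against control, of each tested gene of the 48-gene list and of 4 further cell cycle lists (number tested in parentheses); filled points have an edgeR unadjusted p under 0.05, red bars are list medians, and the grey bar spans the interquartile range, and the thin line the 5th to 95th percentile, of all 12480 tested genes. The 60 other S phase and mitosis genes hold no filled point, and Cdkn2c at -0.54 is the lowest of the inhibitor list.

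The knockout libraries with high values were often replicates 2 and 3. Replicate 2 held the highest CPM of 8 of the 37 tested genes (21.6%, against 10.7% of all tested genes) and replicate 3 of 7 (18.9%, against 10.4%). In the control group the smallest library, replicate 4, was highest for 6 (16.2%, against 19.6%). The macrophage sum was 1448 CPM in knockout replicate 2 and 1337 CPM in replicate 3, and the sum of 12 lymphocyte markers 674 and 460 CPM, both within the control range of 409 to 999 CPM. The part of either cell type in the values of the dividing-cell genes was not tested.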

How the data were processed

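RNA from 8 samples of epididymal mouse fat was profiled by BRB-seq, a 3′-end method primed with oligo-dT and, per the labels' protocols, tagged with Tn5 and read over 51 bases of the insert. The authors deposited estimated counts per gene without normalization; the submitters' processing notes name Salmon and GRCm38, and versions, annotation and use of molecular identifiers are not given in the sources used here. Totals ran from 1538427 to 3053565 per library. A count of 0 allows up to 3 counts, or 0.982 to 1.95 CPM on the plain totals, for counting error only.

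Identifiers were matched without version to GENCODE M21 (34652 of 34866 found). Counts were rounded and compared between genotypes with edgeR 4.0.16 (R 4.3.3): robust quasi-likelihood test, TMM factors, filterByExpr, which left 12480 genes, and Benjamini-Hochberg adjustment at 0.05. CPM are counts relative to the TMM-scaled library totals. Standard errors are the fold change divided by the root of the F statistic. On simulated counts (12480 genes tested) 54% of 2-fold and 82% of 4-fold changes were recovered. Cyp19a1 was compared by an exact permutation test (scipy 1.17.1). Alternatives were RLE factors, no filter, DESeq2 1.42.0, the replicate number as a block, other weights of the sum, and leaving out each library.

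The gene list and the other lists were chosen with earlier results of these data known. Values in every library are given for listed genes with an unadjusted p under 0.05, for the gene with the highest mean CPM in each of 9 role groups, and for genes of the other cell cycle lists with an unadjusted p under 0.05 (at most 10); others named were chosen after their values were seen.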

Additional observations from a re-analysis of the deposited data

Results flagged for a closer look

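The highest and lowest library of each genotype were compared with the other 3 by Dixon's ratio, the distance to the closest value over the range. It passed its critical value in 4 of 56 sets of 4 libraries, where 2.8 would be passed by chance. The sum of all 48 genes was 835 CPM in knockout replicate 1, against 903 to 907 CPM in the other knockout libraries. The replication fork and origin licensing genes summed to 176 CPM in knockout replicate 2, against 138 to 143 CPM in the rest of the group. Cdkn2c was at 161 CPM in knockout replicate 2, against 246 to 255 CPM. Cdk4 was at 61.1 CPM in control replicate 4, the smallest library, against 46.7 to 48.4 CPM.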

How the results depend on the processing

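No gene of the list passed the adjusted threshold under RLE factors, without the filter, with DESeq2, with the replicate number as a block, or in any of the 8 fits that left out 1 library. The count over all genes was 21, against 58 without the filter, 53 with DESeq2, 6 with the replicate block and 4 to 43 with 1 library left out. The listed genes with an unadjusted p under 0.05 were 7 higher and 1 lower. The alternatives of this count were chosen after seeing the data. They gave 4 and 0 with DESeq2, 4 and 0 with the replicate block, and 6 and 0 without the filter. With 1 library left out they gave 3 to 6 and 0 to 1. Of all genes, 3.52% were higher, against 1.8%, 3.03%, 3.16% and 2.92% to 3.83% in the same order. In either direction the shares of all genes were 6.39%, against 3.39%, 5.78%, 5.64% and 5.03% to 7.24%. Correlations between control and knockout libraries of 1 number, after removing group means, were 0.25, -0.0624, -0.00576 and -0.241. Pairs of unlike number were not set beside them, so whether libraries of 1 number share more than that number was not tested. The log2 ratio of the summed genes, 0.077, was 0.146 on plain totals, 0.238 with equal weights and 0.060 to 0.105 with 1 library left out; without the 8 genes of low p, an alternative added after seeing the data, it was 0.027. Of 18 named genes, 12 kept their sign throughout. The other 6, all with a log2 fold change near 0, turned: with 1 library left out Rrm1 ran from -0.18 to 0.19, Ccnd1 from -0.27 to 0.16, Ube2c from -0.35 to 0.02, Anln from -0.07 to 0.15, Smc4 from -0.01 to 0.21 and Tubb5 from -0.10 to 0.16, and with the replicate block Rrm1 and Anln stood at 0.00. Cdkn2c passed the adjusted threshold only without the filter (log2 fold change -0.54, edgeR adjusted p = 0.0418); its adjusted p was 0.14 to 0.851 under the other alternatives. The cause of these changes was not tested. Depth limits the 48 genes, which had 1280 to 2789 counts per library together.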
